A study of Bombus terrestris with 20 samples.

Results

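The active ovary was compared with the fat body of the same kind of worker, the ovary-active (reproductive) worker of the bumblebee Bombus terrestris. The comparison used 3 ovary libraries and 3 fat body libraries from ovary-active workers, among 20 libraries of the series, and covered the 9564 genes listed in both tissue tables. The ovary table listed 10087 genes and the fat body table listed 9659, of 10383 genes listed in any tissue table. Each library was made from the pooled tissue of 7 adult workers of known age taken from queenright colonies, in which the queen is still present. Workers were called ovary-active or ovary-inactive by a score of ovary activation at dissection, and workers with intermediate ovaries were left out. No drug or genetic change was applied to any group. The ovaries were kept in RNAlater and the fat bodies, scraped from the inner wall of the abdomen, in AllProtect, so that preservative and tissue cannot be told apart. Per the study's methods both tissues were dissected from the same workers, so that ovary and fat body libraries share bees.

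The insect ovary holds the germline, which here includes nurse cells that fill each oocyte with RNA and protein, and the somatic follicle cells that surround it and lay down the eggshell. The fat body is the main metabolic organ of insects and combines roles of vertebrate liver and adipose tissue. It stores lipid and glycogen, releases yolk protein precursors into the blood for uptake by growing oocytes, and makes the antimicrobial peptides of the immune response.

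The fat body libraries held 24410162 to 29565066 reads and the ovary libraries 23308139 to 28668067, recovered from the smallest steps of the deposited values. A few genes took very different shares of them. LOC100652170 alone held 19.6 to 21.2% of the counts of each fat body library, whereas the leading gene of each ovary library held 2.13 to 5.72%. The 100 leading genes held 47.4 to 49.95% of the fat body counts and 21.4 to 26.4% of the ovary counts. Each library was scaled to 1000000 counts over the shared genes, and all levels are in these counts (CPM). They are not corrected for gene length, so that they compare tissues and not genes. Under this scaling the median gene lay 0.96 higher in ovary on the log2 scale, and 0.60 higher with the 20 most abundant genes left out of the total. It lay at 0.02 under TMM (trimmed mean of M-values) scaling, which sets the typical gene as equal. Directions below are therefore given under both scalings wherever they differ.

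Ovary and fat body differed at most genes. Of 8783 genes with a mean of at least 1 CPM, 7139 (81.3%) passed the limma test at an adjusted p under 0.05, 5801 (66%) higher in ovary and 1338 (15.2%) higher in fat body. Under TMM scaling the split was near even, at 3347 genes (38.2% of 8758) higher in ovary and 3161 (36.1%) higher in fat body. The 3347 genes (38.1% of those tested) were called higher in ovary under both scalings, as were all 1338 fat body genes (15.2%) in their direction. Of the 5801 ovary calls, 2020 were not called and 434 were called in the opposite direction under TMM. Differences of at least 4-fold were found at 2105 genes (24%) higher in ovary and 456 genes (5.19%) higher in fat body, and under TMM at 1087 and 860. The libraries of the tissues did not overlap at 7310 genes (83.2%). The tables were normalized separately by the authors, and gene-specific length factors used there may differ between them. Over the 4761 tested genes that came out as whole reads throughout, edgeR, which uses TMM factors, called 1793 genes higher in ovary and 1627 higher in fat body.

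**Figure D1:**
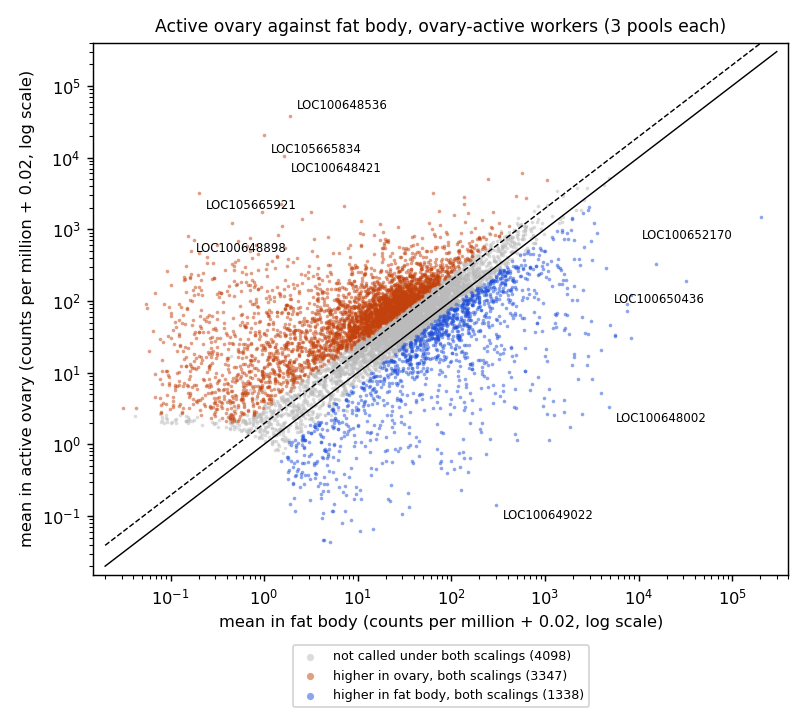
Mean level of each tested gene in the fat body (x axis) and the active ovary (y axis) of ovary-active workers, in CPM on log axes with a small offset for genes at 0. Orange and blue points are the 3347 and 1338 genes called higher in ovary and in fat body under both scalings, the solid line marks equal levels and the dashed line the median gene, 0.96 above it on the log2 scale; LOC100652170 lies farthest right and LOC100648536 highest.

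Ovary replicate 2 stood apart at the genes at least 64-fold higher in fat body. It was the highest ovary library at 33.8% of all tested genes and at 55 of these 68 genes (80.9%). At 4-fold it was the highest at 222 of the 456 fat body genes (48.7%) and 928 of the 2105 ovary genes (44.1%). It was also the highest at 80 of the 166 genes at least 64-fold higher in ovary (48.2%). Over the 68 fat body genes its median lay 1.10 above the mean of the other ovary libraries on the log2 scale. That median was 0.16 over the 166 ovary genes and 0.08 over all tested genes. Summed over the 68 genes without LOC100652170, ovary held 608, 1748 and 470 CPM in replicates 1, 2 and 3, against 137307 to 147767 in fat body. LOC100652170 itself was lowest in replicate 2. Without ovary replicate 2 the test called 5526 genes towards ovary and 1308 towards fat body, 478 of the latter at least 4-fold. The part of this library in single ovary values was not tested.

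Melittin (LOC100631070), named after the main venom peptide of the honeybee, was chosen after its values were seen as an extreme case. It measured 5.48, 2616 and 11.2 CPM in ovary and 234, 300 and 231 in fat body, so that the difference did not pass the test (log2 difference -2.16, limma adjusted p = 0.339). Without ovary replicate 2 it did pass, at -4.92. Among ovary-inactive workers it was likewise uneven, at 15.6, 1688 and 420 in ovary and 0.682, 350 and 0.0914 in fat body. LOC105666408, also chosen after its values were seen, showed a similar unevenness, with 506 in ovary replicate 2 against 0.632 and 1.43 in the others, and likewise passed only without that library (-5.15).

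**Figure D2:**
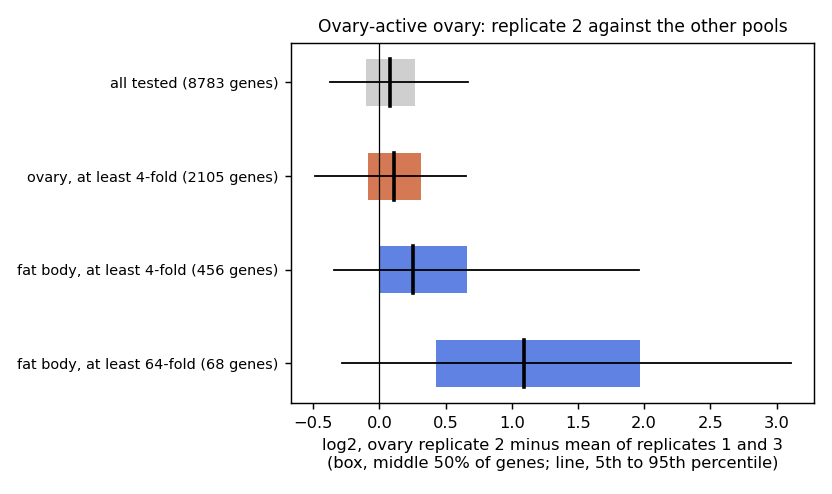
Log2 level of ovary replicate 2 minus the mean of ovary replicates 1 and 3, for all tested genes and for genes at least 4-fold or 64-fold apart between tissues (boxes, middle of the distribution; black bar, median; lines, the outer range of genes drawn). The median rises from 0.08 over all 8783 genes to 1.10 over the 68 genes at least 64-fold higher in fat body.

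The largest differences towards ovary were at genes that were abundant in ovary and nearly unread in fat body. LOC100648536 stood at 35043, 21303 and 57165 CPM in the 3 ovary libraries and at 1.91, 3.24 and 0.406 in fat body. Its fat body levels came from 56, 79 and 12 reads. The log2 difference was 14.08 ± 0.53 (SE, n = 3 against 3, limma adjusted p = 1.55e-07), and the tissues were separated by several orders of magnitude in every library.

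LOC105665834, an uncharacterized protein, followed with 20221, 16145 and 25288 CPM in ovary and 0.785, 2.01 and 0.135 in fat body (log2 difference 13.96 ± 0.44). LOC100648421 measured 8805, 9160 and 14025 in ovary against 1.45 to 1.84 in fat body (12.28 ± 0.19). LOC105665921 measured 3103, 2796 and 3805 against 0.205, 0.205 and 0.135 (12.20 ± 0.15). All 4 genes lack a descriptive name in the sources used here, and none of their fat body libraries approached an ovary library.

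LOC100648898, annotated as major royal jelly protein 1, belongs to the family of yellow and royal jelly proteins, of which the fruit fly member yellow-g acts in the eggshell. Its levels were 824, 338 and 1237 CPM in ovary and 0.103, 0.165 and 0.136 in fat body, where each value rests on 3 to 4 reads. The log2 difference was 10.11 ± 0.41 (limma adjusted p = 2.2e-07). Ovary replicate 2 was the lowest of the ovary libraries and still lay far above the fat body.

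Named enzymes also stood among the 12 largest ovary differences. Cytochrome P450 315a1 (LOC100644009), known in the fruit fly as the enzyme shadow of ecdysteroid synthesis, measured 668, 789 and 628 CPM in ovary and 0.444, 0.697 and 0.372 in fat body (log2 difference 9.44 ± 0.17). 15-hydroxyprostaglandin dehydrogenase (LOC100643900), which in vertebrates inactivates prostaglandins, measured 589, 671 and 562 against 0.273, 0.205 and 0.406 (9.58 ± 0.16). The 12 were taken from genes without overlap between tissues, which made up 83.2% of all tested genes. The other 5 genes among the 12, LOC100651546, LOC100642898, LOC105666656, LOC100646104 and LOC100648658, had log2 differences of 9.57 to 10.33.

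On the fat body side, the largest log2 difference was at LOC100648002, with 4542, 5085 and 4749 CPM in fat body and 4.39, 2.75 and 2.68 in ovary (log2 difference -10.34 ± 0.18, limma adjusted p = 9.1e-09). LOC100650033, LOC100648083, LOC100650927 and LOC100648580 followed at -9.70 to -9.42. Each of these was tight within both tissues. Their lack of overlap was set by the choice, since they were drawn from the 83.2% of tested genes without overlap. LOC100649022 was the gene of this group with the least ovary signal, at 0.211, 0.0743 and 0.0864 CPM from 6, 2 and 2 reads, against 336, 248 and 307 in fat body.

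Abaecin (LOC100631078), a proline-rich antimicrobial peptide of bees, measured 1450, 1358 and 974 CPM in fat body and 0.913, 5.83 and 0.864 in ovary (log2 difference -9.08 ± 0.55). Fatty acyl-CoA reductase wat (LOC100643779), of an enzyme family that makes fatty alcohols from fatty acids, measured 3009, 3536 and 2926 in fat body and 9.36, 7.01 and 8.28 in ovary (-8.50 ± 0.14). Both genes were separated completely between tissues, which the choice among genes without overlap had set. LOC100650436 had the second-highest counts of the fat body, at 27413, 29746 and 38527 CPM. In ovary it stood at 27.8, 522 and 14.7, so that ovary replicate 2 was far above the other ovary libraries (log2 difference -9.02 ± 1.13, limma adjusted p = 0.000111, and -10.57 without that library).

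**Figure D3:**
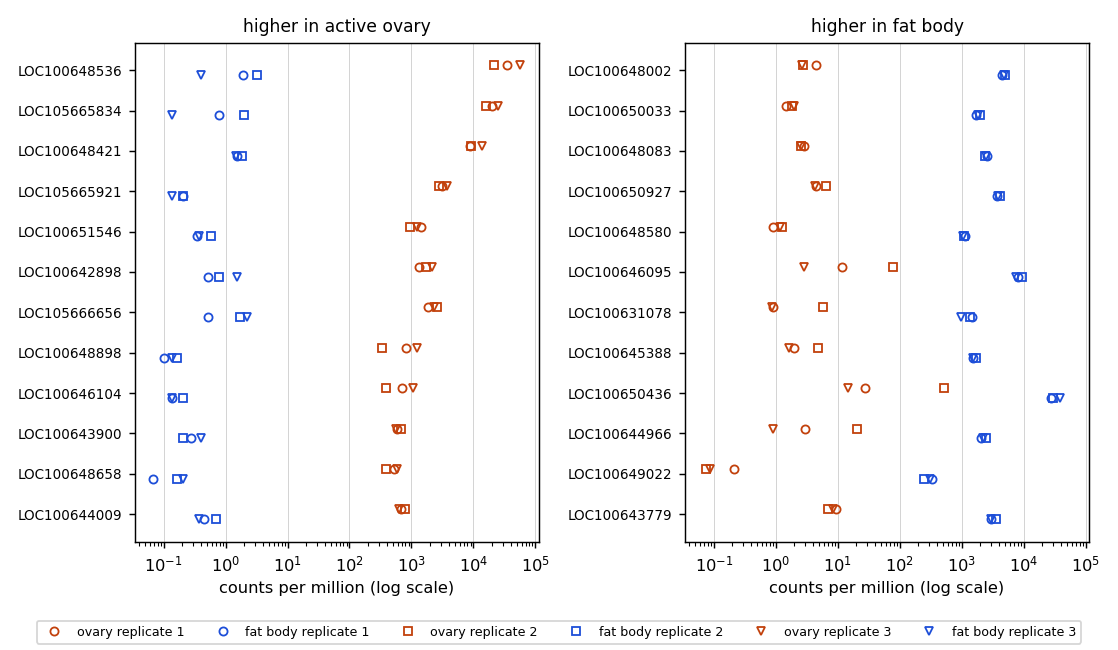
Levels in each library, in CPM on a log axis, of the 12 genes of largest difference towards ovary (left) and towards fat body (right), with orange symbols for ovary, blue for fat body, and circles, squares and triangles for replicates 1, 2 and 3. The genes were drawn from those without overlap between tissues, so that this separation was set by the choice. LOC100650436 and LOC100646095 show ovary replicate 2 apart, at 522 and 77.8 CPM.

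LOC100652170, which had the highest counts of the fat body, measured 207629, 195977 and 211930 CPM in fat body and 1782, 1073 and 1599 in ovary (log2 difference -7.14 ± 0.30). The tissues were far apart in every library, and the lowest ovary value was still 1073. Very-long-chain 3-oxoacyl-CoA reductase (LOC100642272), an enzyme of fatty acid elongation, measured 8232, 7431 and 9383 in fat body and 131, 113 and 123 in ovary (-6.08 ± 0.14). Among other fat body genes of high counts, the log2 difference was -5.62 at LOC100650274, -6.72 at LOC100647796, -6.78 at LOC100651168, -7.83 at LOC100647222 and -6.74 at LOC100648720.

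The genes of highest counts in ovary included several with high counts in fat body. LOC100646910 measured 6935, 6024 and 5396 CPM in ovary and 562, 517 and 622 in fat body (log2 difference 3.43 ± 0.16). LOC100647589 had a log2 difference of 4.33 and LOC100652140 one of 2.17, both called under both scalings. Elongation factor 1-alpha (LOC100631084), which carries charged tRNAs to the ribosome, measured 4044, 4201 and 4247 in ovary and 4481, 4249 and 4184 in fat body. Its libraries overlapped (log2 difference -0.05 ± 0.17, limma adjusted p = 0.804), while TMM scaling placed it lower in ovary, at -1.01. LOC100645451 (0.09) and LOC105666558 (0.41) did not pass the test either, and both turned under TMM (-0.87 and -0.55).

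Gene lists by function were limited by names, since only 2093 of the 8783 tested genes had one in the sources used here. Those sources were a shortened copy of the study's supplement, so that a list may hold only part of its family. Germline and histone genes were higher in ovary throughout. All 6 tested germline members passed the test towards ovary, and 5 of them did under TMM, whereas over all tested genes the shares were 66% and 38.2%. The list's median log2 difference was 3.11 (TMM 2.15), against 0.96 and 0.02 over all genes tested. Protein maelstrom 2 (LOC100644702), whose fruit fly counterpart acts in the piRNA pathway that silences transposons, measured 654, 755 and 847 CPM in ovary and 0.478, 0.697 and 0.880 in fat body (9.32 ± 0.17). Cytoplasmic polyadenylation element-binding protein 1 (LOC100644634), a regulator of maternal mRNA translation in animal oocytes, measured 616, 727 and 462 against 8.40, 6.61 and 9.76 (6.10 ± 0.20). Protein bicaudal C homolog 1-B (LOC100642983, 3.88), maternal protein tudor (LOC100644474, 2.35), piwi-like protein Ago3 (LOC100644656, 1.72) and germ cell-less (LOC100644304, 1.12) completed the list. None of the 6 overlapped between tissues, as was the case at 83.2% of all tested genes. Germ cell-less was the member not called under TMM. Germline transcripts were thus present in every library labelled ovary and lower in every library labelled fat body.

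All 6 histone genes were called higher in ovary under both scalings, as were 38.1% of all tested genes (median 4.104, TMM 3.15). Histone H4 (LOC100643875), a core protein of the nucleosome, measured 213, 251 and 510 CPM in ovary and 0.341, 0.369 and 0.575 in fat body (log2 difference 8.35 ± 0.32). Histone H2B-like (LOC100644116, 7.62), histone H2A (LOC100644480, 4.95) and histone H3.3 (LOC100644906, 3.26) were also apart.

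All 18 members of the DNA replication and cell cycle list were called higher in ovary, 15 of them also under TMM (median 2.30, TMM 1.35). Over all tested genes the shares were 66% and 38.2%. G1/S-specific cyclin-E1 (LOC100643771), which drives entry into DNA synthesis, measured 62.6, 82.1 and 55.2 CPM in ovary and 0.956, 0.901 and 1.39 in fat body (log2 difference 5.40 ± 0.21). Condensin complex subunit 1 (LOC100643370, 4.88), a protein of chromosome compaction, DNA polymerase delta small subunit (LOC100644725, 4.76) and DNA replication licensing factor Mcm3 (LOC100644457, 4.02), part of the replicative helicase, showed the next largest differences.

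For genes of RNA processing and ribosome making the calls depended more on the scaling, and over all tested genes 66% were called higher in ovary at equal totals and 38.2% under TMM. Of 25 splicing genes 24 were called higher in ovary, 17 under TMM with 3 called towards fat body there (median 1.72, TMM 0.76). All 19 nucleolar and rRNA genes were called, 10 under TMM with 2 towards fat body (1.42, TMM 0.46). RNA helicases (11 of 12, and 7 against 3 towards fat body under TMM) and translation initiation factors (8 of 11, and 5 against 3) had medians of 1.39 and 1.224 (TMM 0.44 and 0.26). The nuclear pore list had 5 of 5 called, 3 under TMM (median 2.13, TMM 1.18), led by nuclear pore complex protein Nup93 (LOC100642375, 3.43), a scaffold subunit of the pore.

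Cytosolic ribosomal proteins turned with the scaling. For this and the next lists, 66% of all tested genes were called higher in ovary and 15.2% in fat body. Under TMM these shares were 38.2% and 36.1%. Of 20 members 15 were called higher in ovary and 1 in fat body at equal totals, against 1 and 4 under TMM (median 0.78, TMM -0.19). 40S ribosomal protein S6 (LOC100643777) was highest, with 2130, 2310 and 3689 CPM in ovary against 598, 641 and 638 in fat body (log2 difference 2.07, TMM 1.10). 40S ribosomal protein S28 (LOC100644626) was lower in ovary under both scalings, at 26.6 to 45.04 against 77.7 to 106 in fat body (-1.32). Mitochondrial ribosomal proteins (11 of 11 called towards ovary, 1 under TMM, median 0.75, TMM -0.22) and the V-type ATPase, the proton pump of acidic organelles (6 of 6, under TMM 1 against 2 towards fat body, median 0.79, TMM -0.17), likewise depended on the scaling. The respiratory chain list had 7 of 17 called towards ovary and 1 towards fat body, but 0 and 12 under TMM (median 0.36, TMM -0.61).

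Of the lists examined, immune genes lay furthest towards fat body. All 6 were called higher in fat body under both scalings, as were 15.2% of all tested genes (median -6.69, TMM -7.59). Besides abaecin, lysozyme (LOC100642297), which cleaves bacterial cell walls, measured 1143, 1035 and 1142 CPM in fat body and 6.78, 8.62 and 2.29 in ovary (log2 difference -7.60 ± 0.39). Kunitz-type serine protease inhibitor Bt-KTI (LOC100631053), first known from bumblebee venom, measured 5684, 6535 and 4789 against 18.0, 71.2 and 11.4 (-7.81 ± 0.57). The gene Def, a defensin precursor, measured 215, 255 and 132 in fat body and 3.65, 3.38 and 2.20 in ovary (-5.78 ± 0.27). No immune gene named here overlapped between tissues, and 83.2% of all tested genes did not either. The glucan-binding protein LOC100642442 (-2.04) and spaetzle (LOC100643414, -0.51), the Toll ligand of the fruit fly, had the smallest differences of the list. Spaetzle did not pass without fat body replicate 2 (-0.44).

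Proteasome subunits, of the machine that degrades tagged proteins, also lay towards fat body under both scalings, with 12 of 15 called at equal totals and 15 under TMM (median -0.98, TMM -1.94). Of all tested genes 15.2% were called towards fat body at equal totals and 36.1% under TMM. Proteasome subunit alpha type-5 (LOC100642803), part of the outer ring of the protease core, measured 557, 586 and 549 CPM in fat body and 144, 146 and 138 in ovary (log2 difference -1.98 ± 0.10). Proteasome subunit beta type-2 (LOC100642376) differed by -1.69. Of 8 peroxisome genes 5 were called towards fat body and 1 towards ovary, against 8 and 0 under TMM (median -0.44, TMM -1.41).

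Metabolic lists split into genes of either tissue, beside 66% of all tested genes called towards ovary and 15.2% towards fat body (38.2% and 36.1% under TMM). Of 11 lipid genes, 3 were called towards fat body and 4 towards ovary (6 and 1 under TMM, median 0.17, TMM -0.79). With the reductase wat stood an elongation of very long chain fatty acids protein (LOC100642650), at 1517, 1507 and 1934 CPM in fat body and 80.8, 51.6 and 67.0 in ovary (log2 difference -4.64), and a further elongase (LOC100645016, -2.54). Of 2 tested genes annotated as lipid storage droplets surface-binding protein 2, a perilipin that coats fat droplets, LOC100643974 lay the other way, at 95.6, 97.9 and 103 in ovary and 6.86, 6.14 and 6.24 in fat body (3.85 ± 0.13, TMM 2.91). LOC100643850 did not pass at equal totals (-0.39) but was called towards fat body under TMM (-1.36) and without ovary replicate 1 (-0.53).

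Of 13 sugar genes, 5 were called towards ovary and 4 towards fat body (3 and 6 under TMM, median 0.52, TMM -0.30). The shares over all tested genes were 66% and 15.2% (38.2% and 36.1% under TMM). Members of 1 transporter family lay on opposite sides. Facilitated trehalose transporter Tret1-like LOC100644978, from a family that moves the blood sugar of insects across membranes, measured 458, 445 and 600 CPM in ovary and 0.239, 0.451 and 1.39 in fat body (log2 difference 8.82 ± 0.33), and the similarly annotated LOC100644737 differed by 5.30. Facilitated trehalose transporter Tret1-2 (LOC100642739) measured 617, 625 and 449 in fat body and 71.7, 62.4 and 40.1 in ovary (-3.29 ± 0.23). Glycogen phosphorylase (LOC100642931), which frees glucose from glycogen, was also lower in ovary (-1.25). Solute carriers as a whole divided as well, with 24 of 42 towards ovary and 9 towards fat body (18 and 17 under TMM, median 0.998, TMM 0.05), led by sodium- and chloride-dependent transporter XTRP3 (LOC100642270, 6.27).

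Detoxification and steroid enzymes contained members of both tissues, with 6 of 10 called towards ovary and 2 towards fat body (5 and 4 under TMM, median 1.92, TMM 0.97). All tested genes had shares of 66% and 15.2% (38.2% and 36.1% under TMM). Besides cytochrome P450 315a1, UDP-glucuronosyltransferase 1-8 (LOC100642358) measured 383, 430 and 215 CPM in ovary against 0.306, 0.230 and 0.266 in fat body (log2 difference 8.74 ± 0.26). Cytochrome P450 18a1 (LOC100642897), which in the fruit fly inactivates ecdysteroids, differed by 5.79. Cytochrome P450 6k1 (LOC100642936) lay the other way, at 910, 1271 and 892 in fat body and 18.7, 36.5 and 8.29 in ovary (-5.78 ± 0.45). Methyl farnesoate epoxidase (LOC100642209), the enzyme of the last step of juvenile hormone synthesis in many insects, was singled out after its values were seen. It measured 200, 265 and 340 in ovary and 0.273, 0.205 and 0.609 in fat body (8.28 ± 0.25), without overlap. Of the 8 hormone-related genes 3 were called towards ovary and 1, Kr-h1, the juvenile hormone response factor, towards fat body (-0.67), against 0 and 4 under TMM (median 0.14, TMM -0.81). Kr-h1 did not pass with any single fat body library left out (-0.60 to -0.72).

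Only 3 genes matched the yolk and lipid transport list by name. Both of the 2 tested were higher in ovary at equal totals, as were 66% of all tested genes. Most tested genes had no name, so that other yolk genes may lie among the unnamed genes. The list therefore does not show where yolk precursors as a whole are expressed. The gene annotated as vitellogenin-like precursor (LOC100643258) measured 40.5, 64.9 and 54.9 CPM in ovary and 0.171, 0.0410 and 0.101 in fat body (log2 difference 6.46 ± 0.22). The fat body values rest on very few reads. Microsomal triglyceride transfer protein (LOC100643951), which loads lipid onto lipoproteins, differed by 1.56 and did not pass under TMM (0.60). The median over both was 4.01 (TMM 3.24). No gene matched the eggshell list by name, not even major royal jelly protein 1, which the study's orthology pairs with fruit fly yellow-g.

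**Figure D4:**
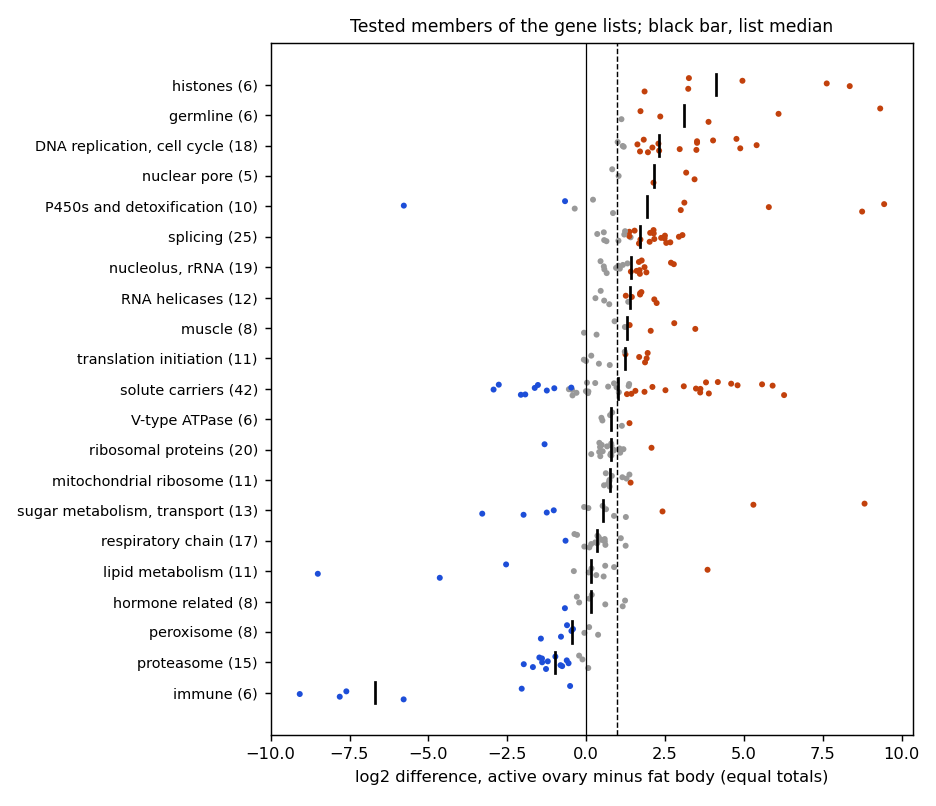
Log2 difference, active ovary minus fat body at equal totals, of every tested member of the gene lists, with the number tested in parentheses and a black bar at each list's median. Orange and blue mark members called higher in ovary and in fat body under both scalings and grey the rest; the dashed line is the median of all tested genes, 0.96, and the lists run from immune (-6.69) to histone (4.104) genes.

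Genes listed by name as markers of other cell types were read in both tissues. Of 8 muscle genes, 6 were called higher in ovary at equal totals, beside 66% of all tested genes, and under TMM 4 were called towards ovary and 2 towards fat body, beside 38.2% and 36.1% (median 1.30, TMM 0.34). Their summed levels were 1131 to 1438 CPM in ovary and 372 to 472 in fat body. Titin LOC100642686 alone averaged 639 in active ovary and 153 in fat body. It averaged 840 in brain of ovary-active workers, so that the sum does not measure muscle alone. Twitchin (LOC100644118) differed by 2.79, whereas troponin I (LOC100642480) overlapped between tissues (-0.07). Genes listed as neuronal were neurexin-4, syntaxin-1A and CUGBP Elav-like family member 2. They summed to 275 to 400 in ovary and 82.8 to 102 in fat body. Towards ovary 2 of 3 were called under both scalings, beside 38.1% of all tested genes. CUGBP Elav-like family member 2 (LOC100644765) averaged 136 CPM in active ovary and 23.5 in brain of ovary-active workers, so that the sum does not measure neurons alone. Hemocytin (LOC100642980), a blood cell protein, was the single hemocyte marker found by name and lay lower in ovary, at 0.950 to 2.38 against 14.0 to 19.4 (-3.03). Of 2 genes listed for gut, trypsin-3 (LOC100642942) was called higher in ovary (1.10) but not under TMM (0.39), at 2.01 to 2.67 against 0.683 to 1.01 CPM. The other, neutral alpha-glucosidase AB (LOC100644473), was not called at equal totals (-0.27) but was towards fat body under TMM. It held 36223 reads in ovary and 45078 in fat body, against 190 and 72 for trypsin-3, and whether it marks gut was not tested. No cuticle marker was listed in both tables. In pooled tissue, fewer cells of a type and less RNA per cell cannot be told apart, and the part of these cells in the tissue differences was not tested.

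Genes listed in 1 table only were mostly faint. The ovary table alone listed 523 genes, of which 148 had a mean of at least 1 CPM, and the fat body table alone listed 95, of which 13 did. A gene left out of a table was not analysed there, so no level or fold can be given for it. LOC100649020 led the ovary-only genes with 1106, 662 and 2072 CPM, and LOC100644582 measured 1642, 435 and 884. LOC100648786 (758, 442 and 803) and LOC100646845 (326, 367 and 310) followed, and LOC105666734 (170, 290 and 138) was also read in both libraries of worker-laid eggs, at 2162 and 2396. Of the 148 genes, 103 reached 1 CPM in both egg libraries, beside 86.3% of all genes tested in both tissues. The leading fat body-only gene, LOC100645147, measured 26.9, 32.9 and 28.5, and the next, LOC100648068, LOC100648120, LOC100646569 and LOC110119539, lay below it.

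Newly laid worker eggs, sequenced as 2 libraries by another provider, gave a view of which ovary genes also occur in the egg. The egg values were estimated from length-corrected abundance and the tissue values were not, so that the ratio of egg to ovary at a single gene also depends on its length. At least 1 CPM in both egg libraries was found for 86.3% of all tested genes, 88.6% of the genes at least 4-fold higher in ovary, 42.5% of those at least 4-fold higher in fat body and 20.6% of the 68 genes at least 64-fold higher there. Among the 166 genes at least 64-fold higher in ovary, 101 had a higher value in eggs than in the active ovary, 45 lay between 1 and 100% of the ovary level, and 20 under 1%. The 20 genes had a median of 302 CPM in active ovary, 2.88 in inactive ovary and 0.348 in eggs, and summed to 77693 CPM.

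The leading ovary genes fell on both sides of this division. LOC100648536, LOC105665834, LOC100648421, LOC105665921, LOC100651546, LOC100648898, LOC100646104 and LOC100648658 were among the 20 genes low in eggs. UDP-glucuronosyltransferase 1-8 was too, as was protein I'm not dead yet (LOC100642306), a citrate transporter in the fruit fly named here after its values were seen. By contrast, cytochrome P450 315a1 (LOC100644009) stood at 1755 and 1830 CPM in the egg libraries, 15-hydroxyprostaglandin dehydrogenase (LOC100643900) at 1983 and 1902, LOC100642898 at 2304 and 2474 and LOC105666656 at 9792 and 13009. Eggs and tissues were made into libraries by different providers, and provider and source cannot be told apart.

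The tissue difference was also measured in ovary-inactive workers, whose ovaries hold no developing eggs. There, 6753 genes (76% of 8887) were called higher in ovary and 1201 (13.5%) higher in fat body. Of the genes at least 4-fold higher in active ovary, 1679 of 2040 that could be compared were at least 4-fold higher in inactive ovary too, and for fat body 335 of 452, beside 2564 and 453 of all 8666 genes compared. The comparisons use different libraries of each tissue. Per the study's methods, age-matched ovary-active and ovary-inactive workers came mostly from different colonies, so that colony and ovary activation cannot be fully told apart. The interaction, the change of the tissue difference with ovary activation, was called at 4022 of 8900 genes (45.2%), with 1120 (12.6%) shifted towards ovary and 2902 (32.6%) towards fat body in ovary-active workers. Under TMM the split was 1872 (21.2% of 8850) and 1748 (19.8%).

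The genes with the largest shift towards ovary were 5 of the leading ovary genes. LOC100648536 stood at 5.03, 4.95 and 4.68 CPM in inactive ovary, against 21303 to 57165 in active ovary, and its tissue difference was larger by 10.90 ± 0.61 on the log2 scale (limma adjusted p = 5.01e-07). LOC105665834 was uneven in inactive ovary, at 0.999, 187 and 0.563 (interaction 10.37 ± 2.03). LOC105665921 (10.55), LOC100651546 (10.03) and major royal jelly protein 1 (LOC100648898, 9.79) completed the group. Major royal jelly protein 1 measured 0.0374, 0.228 and 0.263 in inactive ovary, so that ovary-inactive workers held less than 1 CPM of it in either tissue.

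Shifts towards fat body were smaller at their extreme. LOC105667104 measured 7785, 2581 and 5752 CPM in inactive ovary and 148, 153 and 102 in active ovary, while the fat body held 206 to 224 in ovary-active workers (interaction -4.73 ± 0.47, limma adjusted p = 3.38e-05). LOC100645523 stood at 92.7, 89.9 and 171 in inactive ovary and at 4.15, 6.13 and 4.30 in active ovary, with an interaction of -4.35. It remained above fat body in ovary-active workers, where fat body stood at 0.0338 to 0.102. LOC100648607 (-4.49) instead differed in fat body, at 102, 40.3 and 19.96 in ovary-active and 1.63, 3.55 and 1.92 in ovary-inactive workers, with ovary at 12.1 to 20.02 and 10.7 to 52.1.

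**Figure D5:**
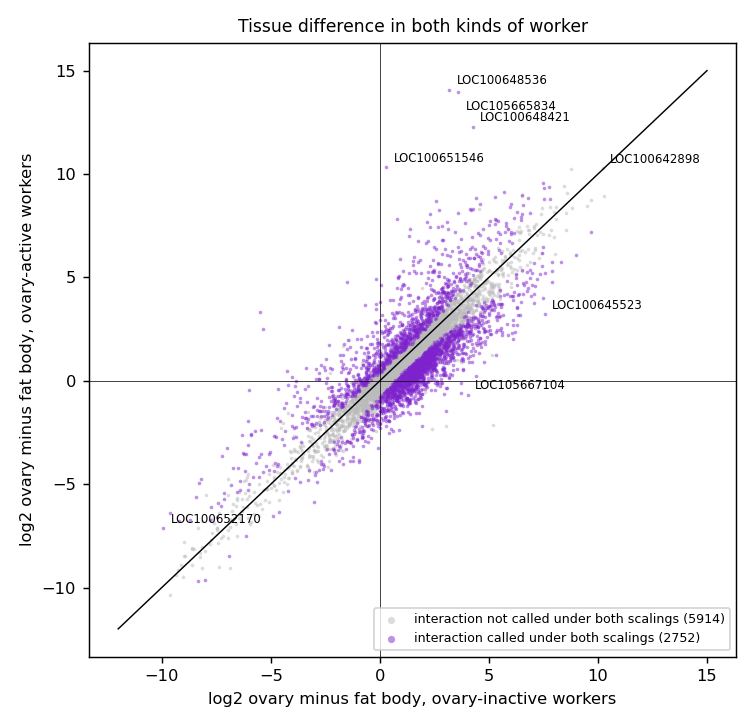
Log2 difference of ovary minus fat body in ovary-inactive workers (x axis) and ovary-active workers (y axis) at equal totals, for the 8666 genes tested in both, with the line of equal differences. Purple points are the 2752 genes whose interaction was called in the same direction under both scalings; LOC100648536 and LOC105665834 lie highest and LOC105667104 lies below the line.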

How the data were processed

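Pools of 7 workers were sequenced as mRNA for ovary and fat body, 3 libraries per tissue and phenotype. The authors pseudoaligned reads to the B. terrestris transcriptome with Kallisto 0.46.1, summed them per gene with tximport, and normalized each tissue separately with DESeq2 1.34.0 in R 4.1.3, so that the deposited tissue tables hold normalized counts (a signal, not raw reads). The deposited egg table holds estimated counts of 2 libraries, which the authors scaled from transcript abundance, so that gene length is taken out.

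The planned design assumed no whole-read counts, and the deposited values were tested on the log2 scale. Over the 9564 genes in both tables each library was scaled to a total of 1000000 counts (CPM), and log2(CPM + 0.5) was fitted with limma 3.58.1 (trend, R 4.3.3) for genes with a mean of at least 1 CPM over the 6 libraries, with Benjamini-Hochberg adjustment and a threshold of 0.05. Fold changes on this scale understate the change of low genes. Genes listed in 1 table only were divided by the same totals, and the egg libraries by the totals of their own table. The interaction with ovary activation was fitted over 12 libraries. Of the values in each library, 60.3 to 61.0% were whole multiples of 1 read (within 0.02 reads), 1 read being worth 0.0338 to 0.0432 CPM. On genes whole in every library, edgeR 4.0.16 and DESeq2 1.42.0 were run as alternatives. The code was tested on simulated data. Python 3.11.15, pandas 2.3.3, numpy 2.4.6 and matplotlib 3.10.9 were used.

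Ovary and fat body were dissected from the same workers, in pools that the study numbers alike for all tissues. The study's list of pools by replicate number was not used here, and the main fit treated libraries as independent, with a replicate block as an alternative, so that p-values measure the spread among pools. Levels set across the tables rest on this rescaling. Genes named were the 12 of largest difference in each direction without overlap, the 10 most abundant in each tissue, up to 4 called members of each list in each direction, the 5 leading genes of 1 table only, the 5 largest interactions in each direction and all tissue markers, of which those that carry a comparison are printed. Members and lists were chosen with earlier results of these data known. Names came from a shortened copy of the study's supplement, which names 2093 of 8783 tested genes, mostly genes listed for eggs or brain. List members with a LOC number ran only from LOC100631053 to LOC100645016, so that genes numbered higher are missing from the lists. Counting error alone limits levels near 1 read.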

Additional observations from a re-analysis of the deposited data

Results flagged for a closer look

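The tissue difference of 4022 genes differed between ovary-active and ovary-inactive workers by the interaction test of limma (adjusted p under 0.05), and all genes below passed that test. The genes with the largest shifts are described above, at LOC100648536 (10.90), LOC105665921 (10.55), LOC105665834 (10.37), LOC100651546 (10.03) and LOC100648898 (9.79) towards ovary, and at LOC105667104 (-4.73), LOC100648607 (-4.49) and LOC100645523 (-4.35) towards fat body.

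LOC110119561 (-4.29) was below the expression filter in the ovary-active comparison. It measured 14.9, 3.31 and 10.3 CPM in inactive ovary and 0.0585, 0.0390 and 0 in active ovary, with fat body under 0.25 throughout. LOC100645190 (-4.29) measured 13.9, 5.27 and 7.67 in inactive ovary and 2.14, 2.19 and 2.50 in active ovary. In fat body it stood at 13.6, 1.39 and 2.17 in ovary-active and 0.0758, 0.349 and 0.122 in ovary-inactive workers, so that 1 fat body library stood far above the others.

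Among further genes named above, the shift towards ovary was 9.56 at LOC100646104, 8.02 at LOC100648421 and 7.99 at LOC100648658. Odorant receptor 13a (LOC100643382), described among the other observations, shifted by 4.47 ± 1.20, with 0.111, 12.3 and 0.217 CPM in inactive ovary, where replicate 2 stood apart. Cytochrome P450 18a1 (LOC100642897) shifted by 4.29 ± 0.40, from 4.64, 5.44 and 6.52 CPM in inactive ovary. Methyl farnesoate epoxidase (LOC100642209, 4.097 ± 1.31, limma adjusted p = 0.0235) and the trehalose transporter LOC100644978 (4.42 ± 1.59, limma adjusted p = 0.0395) were both uneven among the inactive ovaries. The first stood at 6.69, 77.9 and 1.47 there and the second at 8.43, 113 and 0.736, with replicate 2 the highest in both.

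The tissue difference turned at LOC100652273 (8.83 ± 0.59) and LOC105666395 (7.85 ± 0.35), which were picked for this pattern. LOC100652273 measured 1081, 544 and 683 CPM in active ovary and 76.6, 56.0 and 93.2 in the fat body of the same phenotype, but 0.222, 1.32 and 0.433 in inactive ovary against 27.1, 51.0 and 81.1. LOC105666395 measured 188, 148 and 248 in active ovary and 35.2, 35.2 and 29.2 in fat body, but 0.148, 0.771 and 0.736 in inactive ovary against 42.7, 37.3 and 41.4. Fat body levels of both genes overlapped between phenotypes or lay near each other, and the ovary levels did not overlap.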

How the results depend on the processing

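The split of calls depended on the scaling, and the number of calls also on how many genes were tested. Calls towards ovary numbered 3347 (1087 at least 4-fold) under TMM, 3285 (1063) under median-of-ratios scaling, 1793 (643) by edgeR and 1794 (635) by DESeq2. The main limma fit, counted over whole-read genes only (a choice made after seeing the data), held 3176 (1109). Against a minimum change of 1 on the log2 scale there were 3267. Calls towards fat body numbered 3161 (860) under TMM and 3233 (868) under median-of-ratios scaling. They numbered 713 (249) in the main fit counted over whole-read genes and 629 against that minimum change. The ovary share of calls was 81.3% at equal totals, and 81.7% when the same fit was counted over whole-read genes. It was 51.4% under TMM, 50.4% under median-of-ratios scaling and 71.6% with the 20 most abundant genes left out of the total. The median difference was 0.0184, -0.0105 and 0.60 under those scalings and 0.87 without the filter. Interaction calls numbered 1776 by edgeR and 2558 at an adjusted p under 0.01. Of the genes in 1 table only, 148 for ovary and 13 for fat body had a mean of at least 1 CPM. With each library left out, calls ranged from 5478 to 6150 (2040 to 2131 at least 4-fold) towards ovary, from 1184 to 1410 (422 to 499) towards fat body and from 3453 to 4203 for the interaction, and the median from 0.94 to 1.02.

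Of 91 genes named and tested, 74 kept direction and call under every alternative run for them. LOC100645451 turned under TMM (-0.87), median-of-ratios scaling (-0.90), the reduced total (-0.29), edgeR (-0.88) and DESeq2 (-0.91), and ranged from -0.0294 to 0.18 with a library left out. LOC105666558 turned under both rescalings (-0.55 and -0.58), melittin (LOC100631070, 0.77) and LOC105666408 (0.59) turned under edgeR, and, with a library left out, troponin I (LOC100642480) ranged from -0.15 to 0.0530 and LOC100645190 from -1.14 to 0.30. The cause was not tested.

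Both tissues came from the same workers, but whether a replicate number names the same pool in both was not settled here. The correlations of same-numbered libraries' deviations were 0.17, -0.01 and 0.04, which does not show that the pools differ. With a replicate block the test called 5691 and 1310 genes towards ovary and fat body (2105 and 456 at least 4-fold) and 3539 interactions, and 0 of the 91 named genes changed call.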

Other observations

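Genes at least 4-fold apart made up unequal parts of each library. The 2105 genes higher in ovary held 36.3% of the ovary counts and 2.93% of the fat body counts, and the 456 genes higher in fat body held 48.7% of the fat body counts and 1.61% of the ovary counts. Chemoreceptor genes, known for taste and smell, were all 3 called higher in ovary under both scalings, as were 38.1% of all tested genes. Gustatory receptor for sugar taste 43a (LOC100643101), a fructose receptor in the fruit fly, measured 105, 117 and 128 CPM in ovary and 14.5, 14.8 and 15.5 in fat body (log2 difference 2.92 ± 0.12). Odorant receptor 13a (LOC100643382) measured 34.0, 55.9 and 39.2 against 5.84, 5.90 and 7.78 (2.61). Odorant receptor 9a (LOC100644217), at 1.86, 4.01 and 3.63 in ovary, was read in 1 fat body library alone.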
